A study of Mus musculus with 6 samples.

Results

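The respiratory chain subunits are the nuclear-encoded proteins of complexes I to V, which carry out oxidative phosphorylation in mitochondria. They were chosen by gene symbol, with earlier results of these data known. The rule took every probe of the platform annotation whose symbol belongs to the Nduf (a, b, c, s and v series), Sdh (a to d), Uqcr, Cox4 to Cox8 or Atp5 families. That gave 122 of 45281 probes, which stand for 79 of the 19057 genes with 1 symbol. Of these, 103 probes and 73 genes were among the 18420 brightest probes that were tested, and the tested probes of the whole array stood for 10273 genes. The 6 genes left out as too dim were Uqcrfs1, Ndufs1, Sdha, Cox4i2, Cox7b2 and Cox8c. Further subunit genes such as Cox8a, Cox7c, Uqcrb and Atp5g1 had no probe under their symbol and were not analysed here.

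The samples are total RNA from the sciatic nerves of mice at postnatal day 14, each run on 1 Illumina Mouse WG-6 version 2 bead array. The 3 mutant arrays hold nerves of mice with the P0-Cre transgene and a mutated Dicer gene, labelled P0 Cre Dicer F or N, and the 3 control arrays hold nerves of control littermates. The label gives both sexes for each sample, and the sources used here do not explain "F or N" or say how many animals an array holds. The P0 promoter drives Cre in the Schwann cell lineage, while the nerve also holds axons, fibroblasts, vessels, macrophages and whatever fat or muscle was dissected with it, so in these bulk samples fewer cells of a type and less RNA per cell cannot be told apart. The design text speaks of cultured cells, but the title and every label name sciatic nerve.

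Electrons from NADH enter the chain at complex I and those from succinate at complex II. They pass through complex III to complex IV, which reduces oxygen, and complex V (ATP synthase) uses the proton gradient to make ATP. Each complex except complex II also holds subunits encoded in mitochondrial DNA, and several complex IV subunits come in pairs, a general isoform and one typical of muscle and heart. In nerve, mitochondria of axons and of Schwann cells both depend on this chain, and Schwann cells that lack Dicer, the enzyme that makes mature miRNAs, fail to myelinate properly.

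Values are on the deposited log2-like scale, and a difference is always the mutant mean minus the control mean. A gene was called when its limma p-value, adjusted by Benjamini-Hochberg over all 18420 tested probes, was below 0.05, and each gene was read from its brightest probe. What the p-values weigh is how these 6 arrays scatter, and part of that scatter may be technical. The 3 control arrays correlated with each other at 0.992 to 0.995 over the tested probes, and the 3 mutant arrays at 0.973 to 0.993. Mutant replicate 1 was the least like the other mutants, and the second principal component, 11.7% of the variance, set it apart. Of the Dicer1 probes, the brightest gave 9.28, 9.10 and 9.13 in mutant nerves, against 9.29, 9.17 and 9.13 in control nerves, and a dimmer one was called lower (difference -0.20, SE 0.06, adjusted p = 0.0458). Whether any of them lies in the deleted part is not known here, so they do not check the genotype. All 5 tested markers of myelinating Schwann cells (of 8 listed) were called lower, among them Ncmap (-5.00), a protein of non-compact myelin, and Egr2 (-2.45), the transcription factor that drives myelination.

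Of the 73 tested respiratory chain genes, 22 were called lower in mutant nerves and 1, Atp5b, was called higher, while 50 were not called. The brightness filter kept 1 of the 22, Atp5k, only through the controls, and 21 of the other 72 were called lower. With the replicate number as a block 30 were called lower, 18 of them shared with the 22. Among all tested genes 39.6% were called, 17.6% lower and 22.0% higher, so the chain held more lower calls (30.1%) and fewer higher calls (1.37%) than the array as a whole. This was not particular to the chain. Mitochondrial ribosomal protein genes had 27.8% lower and 1.39% higher calls, and assembly factors of the chain 39.0% and 2.44%. Cytosolic ribosomal protein genes had 3.77% and 0%. The fitted difference pointed lower for 68 of the 73 genes, called or not, and its median was -0.55, against 0.01 over all genes tested. In 51 of the 73 genes (69.9%) every mutant value lay below every control value, against 25.5% of all tested genes. There were 7 called genes that differed by 1 unit or more, which is 2-fold if the scale is plain log2: Ndufa13, Ndufa5, Ndufc1, Uqcr11, Cox8b, Cox6a2 and Cox7a1. Among all genes 2.93% were called lower by that much. Counted by probe, 34 of 103 were called lower and 1 higher, against 15.9% and 19.9% of all tested probes.

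**Figure D1:**
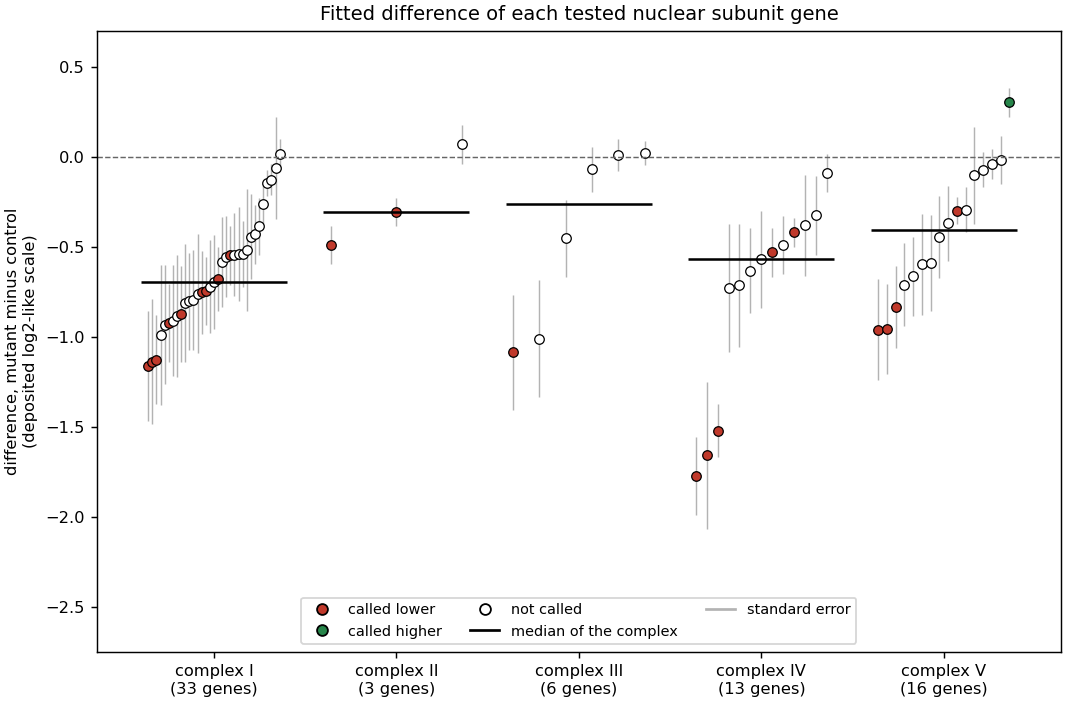
Fitted difference (mutant minus control, deposited log2-like scale, y axis) of each tested nuclear subunit gene, sorted within complexes I to V on the x axis, with its standard error as a grey bar: filled points were called lower or higher, open points were not called, and the black lines mark the median of each complex. The 3 lowest points in complex IV, -1.52 to -1.77, are Cox7a1, Cox6a2 and Cox8b, and the point called higher is Atp5b in complex V.

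The size of the decrease was uneven across the mutant arrays. The median over the 73 genes, relative to the control mean, was -1.18 in mutant replicate 1, -0.38 in mutant replicate 2 and -0.25 in mutant replicate 3, against -0.03, 0.06 and -0.02 in the control replicates. Mutant replicate 1 gave the lowest mutant value in 64 of the 73 genes (87.7%), against 37.8% of all tested genes. Without that array the median difference became -0.30, nearer to 0, yet 44 of 73 genes were called lower and 2 higher, against 21.0% and 24.4% of all genes. All 22 genes called lower with every array were among those 44. Without mutant replicate 2 or 3, 10 and 37 genes were called lower, and without control replicate 1, 2 or 3 the counts were 5, 6 and 8. The difference pointed lower for 64 to 70 of the 73 genes under each of these fits, while the number of calls moved with the arrays fitted. The number of calls over all probes moved too. Apart from the fit without mutant replicate 1, no share of all genes is given for the refits. Their counts therefore cannot be set against the array. Without the brightness filter 7 of 79 genes were called lower (Ndufc1, Sdhc, Sdhd, Cox7a1, Cox8b, Cox7b and Atp5k) and 0 higher. With array weights estimated from these same values 43 were called lower and 2 higher. Those weights were 0.208, 4.64 and 0.629 for mutant replicates 1, 2 and 3, so that fit rests mostly on 1 mutant array. Mutant replicate 1 was also the lowest mutant array in 45 of 53 cytosolic ribosomal protein genes, whose median difference was -0.29, and in 60 of 72 mitochondrial ribosomal protein genes, with a median of -0.33. Whether the same property of that sample lowered both groups was not tested.

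**Figure D2:**
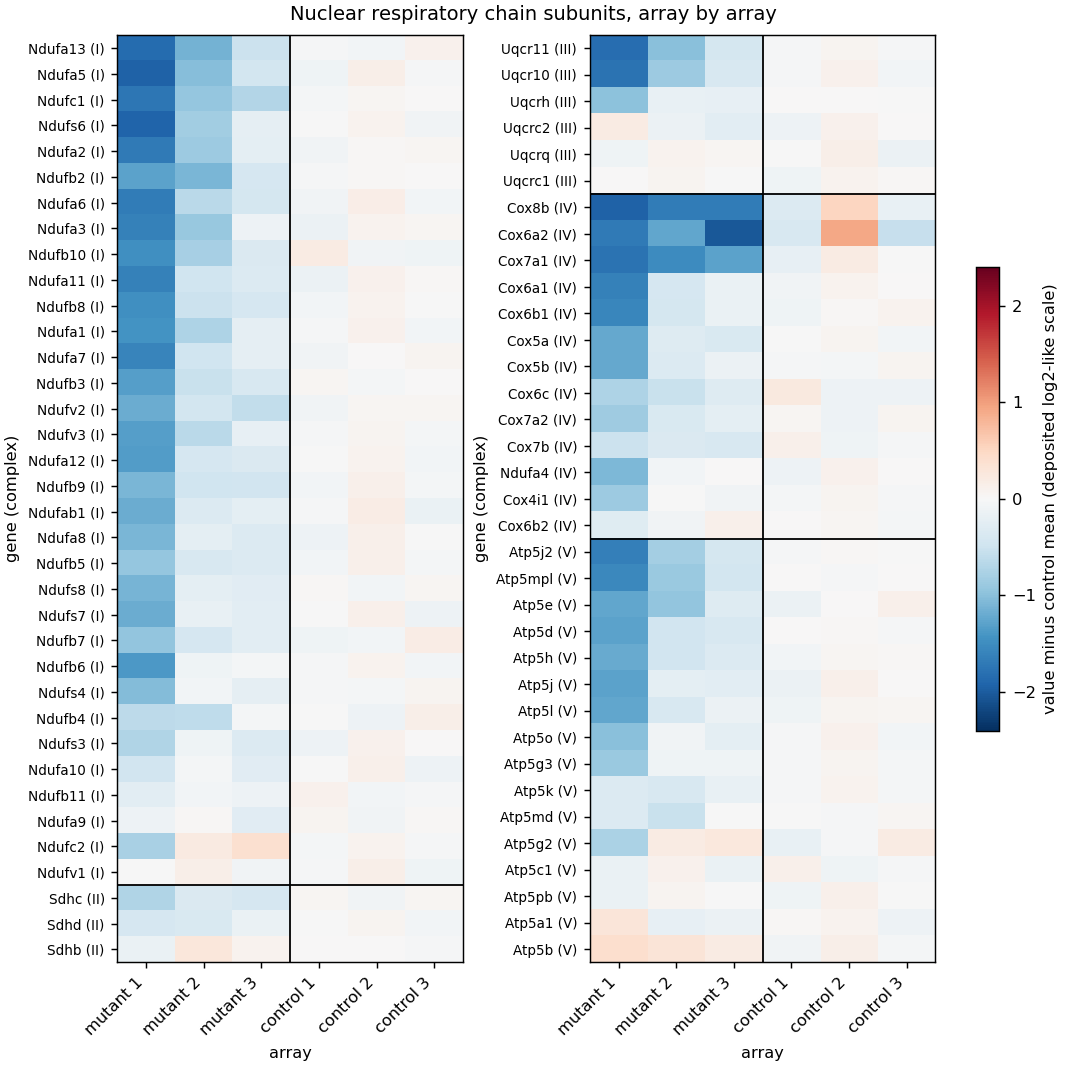
Value of each tested nuclear subunit gene in each array minus its control mean (colour, deposited log2-like scale, blue for lower), with genes in rows grouped by complex and arrays in columns, mutants left of controls. The mutant replicate 1 column is the darkest in most rows, while Cox8b, Cox6a2 and Cox7a1 are blue in all 3 mutant columns and Atp5b is faintly red in all 3.

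The muscle and heart isoforms of complex IV had the 3 largest decreases of the whole chain. Cox7a1, the muscle and heart form of subunit 7a, had 9.34, 9.59 and 9.82 in mutant nerves, against 10.91, 11.31 and 11.10 in control nerves. It averaged 9.58 ± 0.24 in mutants and 11.11 ± 0.20 in controls (SD, n = 3 each), a difference of -1.52 (SE 0.15, adjusted p = 0.000427). No mutant array came within 1 unit of a control array for this gene. Cox8b, the muscle and heart form of subunit 8, had 9.08, 9.34 and 9.34 in mutant nerves, against 10.70, 11.54 and 10.85 in control nerves. The 3 mutant arrays were alike, control replicate 2 was the highest, and the difference was -1.77 (SE 0.22, adjusted p = 0.00116). Cox6a2, the muscle and heart form of subunit 6a, had 9.05, 9.51 and 8.72 in mutant nerves, against 10.36, 11.69 and 10.21 in control nerves. Its groups did not overlap either, but its arrays scattered more, and the difference of -1.66 carried an SE of 0.41 (adjusted p = 0.0202). The Cox7a1 and Cox8b calls were kept whichever single array was left out, and Cox6a2 missed the threshold without mutant replicate 3 (adjusted p = 0.0546) and without the brightness filter (adjusted p = 0.0655). Without mutant replicate 1 the differences of Cox7a1, Cox8b and Cox6a2 were -1.40, -1.69 and -1.64.

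**Figure D3:**
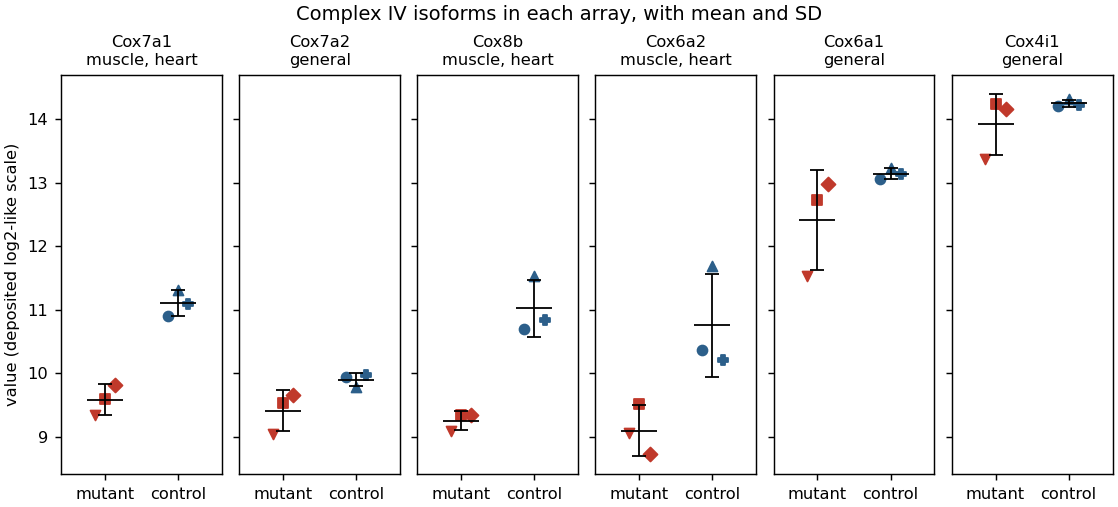
Values of 6 complex IV isoforms (panels) in each array on the deposited log2-like scale (y axis), mutant left and control right, with symbols for replicate 1 (mutant triangle down, control circle), 2 (mutant square, control triangle up) and 3 (mutant diamond, control plus), the horizontal bar for the mean and error bars for the SD (n = 3). Mutant and control points stand well apart for Cox7a1, Cox8b and Cox6a2, and lie closer for Cox7a2, Cox6a1 and Cox4i1, where mutant replicate 1 is the lowest point.

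None of the general isoforms Cox7a2, Cox6a1 and Cox4i1 was called with every array. Cox7a2, the general form of subunit 7a, had 9.04, 9.53 and 9.65 in mutant nerves, against 9.94, 9.78 and 9.97 in control nerves, a difference of -0.49 (SE 0.16, adjusted p = 0.0536). Cox6a1, the general form of subunit 6a, had 11.53, 12.74 and 12.99 in mutant nerves, against 13.06, 13.23 and 13.15 in control nerves. Its groups did not overlap, yet mutant replicate 1 alone lay over 1 unit below the rest, and the difference of -0.73 was not called (SE 0.35, adjusted p = 0.159). Cox4i1, the general form of subunit 4 and the brightest complex IV gene, had 13.38, 14.25 and 14.16 in mutant nerves, against 14.21, 14.32 and 14.23 in control nerves, a difference of -0.32 (adjusted p = 0.301) with groups that overlapped. Without mutant replicate 1, Cox7a2 (-0.30, adjusted p = 0.0180) and Cox6a1 (-0.28, adjusted p = 0.0408) were called lower, and Cox4i1 (-0.05, adjusted p = 0.579) was not.

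Each isoform pair was compared within arrays, as the value of the tissue-restricted isoform minus that of the general one. For Cox7a1 minus Cox7a2 this was 0.30, 0.06 and 0.17 in mutant nerves, against 0.96, 1.53 and 1.13 in control nerves. The groups did not overlap, and the pair changed unequally by -1.03 (SE 0.18), which reached the smallest p that 3 against 3 arrays allow in a 2-sided exact permutation test (p = 0.1, adjusted p = 0.15 over 3 pairs). For Cox6a2 minus Cox6a1 the groups overlapped, with an unequal change of -0.93 (SE 0.68, exact permutation p = 0.3). Cox6b2, a testis isoform, minus Cox6b1, its general form, gave 0.62 (SE 0.33, exact permutation p = 0.1, adjusted p = 0.15). Cox6b2 itself lay near the dim end of the scale (8.58 ± 0.21 in mutants and 8.67 ± 0.04 in controls, SD, n = 3 each) and was not called. The Cox8b pair could not be formed without a Cox8a probe, and Cox4i2 was too dim, at 8.09 in mutants and 8.08 in controls. An exact test of 3 against 3 arrays cannot pass 0.05.

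The promoters of the subunit 7a pair, of Cox8b and of the general Cox6a1 are shown because their fitted differences ranged so widely. The sequences are the 250 bases before the start of each gene, 5′ to 3′ on the gene's own strand, from RefSeq (GRCm38.p6): Cox7a1 at chr7:30183921-30184170 (+), Cox7a2 at chr9:79759854-79760103 (-), Cox8b at chr7:140900447-140900696 (-) and Cox6a1 at chr5:115348959-115349208 (-). Capitals mark any match, on either strand, to the core letters of 6 motifs: NRF1 (GCGCA and GCGC with 1 base between), GABP (CCGGAAG), YY1 (ATGGCGG), ERR (AAGGTCA), MEF2 (CTA and TAG with 4 bases between) and the muscle E box (CAGCTG).
Cox7a1: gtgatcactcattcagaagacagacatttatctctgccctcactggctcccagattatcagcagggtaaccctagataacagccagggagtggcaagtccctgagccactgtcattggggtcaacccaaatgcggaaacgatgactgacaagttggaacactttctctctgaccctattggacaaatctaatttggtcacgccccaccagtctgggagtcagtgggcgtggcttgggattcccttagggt
Cox7a2: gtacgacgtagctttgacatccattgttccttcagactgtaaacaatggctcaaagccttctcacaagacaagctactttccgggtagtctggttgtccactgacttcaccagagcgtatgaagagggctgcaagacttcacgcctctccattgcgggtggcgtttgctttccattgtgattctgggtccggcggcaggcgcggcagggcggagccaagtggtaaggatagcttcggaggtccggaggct
Cox8b: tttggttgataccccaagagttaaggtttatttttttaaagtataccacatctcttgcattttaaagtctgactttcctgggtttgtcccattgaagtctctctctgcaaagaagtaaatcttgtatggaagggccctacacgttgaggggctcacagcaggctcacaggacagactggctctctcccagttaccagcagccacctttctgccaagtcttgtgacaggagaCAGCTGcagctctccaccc
Cox6a1: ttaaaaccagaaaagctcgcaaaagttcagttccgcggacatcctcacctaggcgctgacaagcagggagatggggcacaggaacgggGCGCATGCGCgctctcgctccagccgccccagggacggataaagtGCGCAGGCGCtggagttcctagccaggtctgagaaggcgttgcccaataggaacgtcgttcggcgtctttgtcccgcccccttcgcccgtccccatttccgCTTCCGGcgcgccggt
Cox6a1 held 2 NRF1 matches, whose first bases lie at -162 and -117 from the gene start, and a GABP match at -16, read on the other strand. Cox8b held 1 E box at -19, while the Cox7a1 and Cox7a2 windows held none of these letters. Among the 65 member genes with a RefSeq promoter, 18.5% held the NRF1 letters and 18.5% the GABP letters, against 4.23% and 7.83% of 27025 genes. The shares were 6.15% against 2.58% for YY1, 6.15% against 4.70% for ERR, 1.54% against 3.70% for MEF2 and 7.69% against 14.7% for the E box. The NRF1 letters stood in 18.8% of the 16 members called lower and in 17.4% of the 46 tested members not called lower, and the E box letters in 18.8% and 4.35%, which are 3 and 2 genes. These are matches of letters, not shown binding sites.

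Markers of tissues that use the muscle isoforms were read beside them. Of 21 tested skeletal muscle markers (of 24 listed), all pointed lower and 4 were called lower (19.0%, against 17.6% of all tested genes). The called ones were Myh1 (-0.89), a fast myosin, Mb (-0.40), myoglobin, Tnni1 (-0.27) and Tnnc1 (-0.21), slow troponins. The filter kept Tnni1 and Tnnc1 only through the controls, and 2 of the other 19 were called lower. Their mean level was 10.81, 10.67 and 9.45 in mutant nerves, against 10.99, 11.88 and 10.91 in control nerves, so mutant replicate 3 was the lowest and control replicate 2 the highest. With the replicate number as a block 11 were called lower, and leaving out 1 array gave 1 to 8. Of the cardiac markers, Myh6, Nppa, Nppb, Tnni3 and Myl7 were below the filter, the highest array value being 8.28 (Tnni3). The other 2 of that list, which were tested, were not called: Actc1, cardiac actin (-1.22, adjusted p = 0.267), with mutant replicate 3 the lowest array and control replicate 2 the highest, and Myl4 (-0.29, adjusted p = 0.0792), whose groups did not overlap. Ucp1, the uncoupling protein of brown fat, had 8.56, 8.64 and 8.26 in mutant nerves, against 9.29, 9.78 and 9.50 in control nerves (difference -1.04, SE 0.15, adjusted p = 0.00228). Cidea, a lipid droplet protein of brown fat, fell by 0.91 (SE 0.14, adjusted p = 0.00326), also without overlap. Over the 5 tested brown fat markers (of 10 listed, 9 of them on the array) the mean level was 9.14, 8.99 and 8.87 in mutant nerves, against 9.25, 9.59 and 9.32 in control nerves, with 3 called lower and 1, Ppargc1a, called higher (2 to 4 lower and 0 or 1 higher when 1 array was left out). Of 7 tested markers of fat cells in general (of 12 listed), 1 was called lower, with a median of -0.31. Their mean level was 10.55, 10.38 and 10.26 in mutant nerves, against 10.72, 10.75 and 10.45 in control nerves. In Cox6a2 mutant replicate 3 was the lowest array and control replicate 2 the highest. The mean levels of the muscle, brown fat and general fat markers all had this same lowest and highest array. Control replicate 2 was also the highest array for Cox7a1 and Cox8b, whereas mutant replicate 3 was the lowest mutant for neither. The part of muscle or fat RNA in the decrease of these isoforms was not tested.

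**Figure D4:**
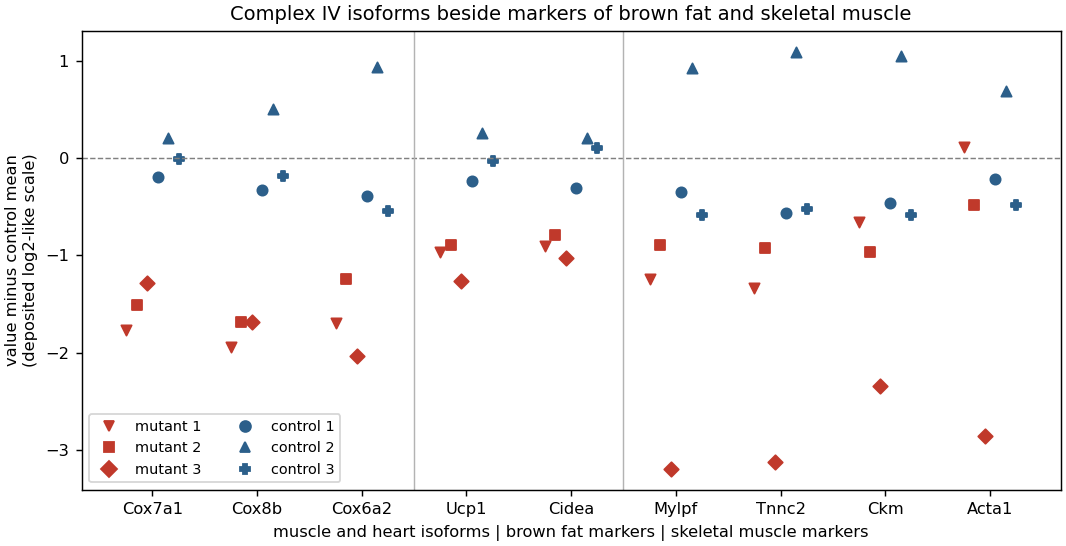
Value in each array minus the control mean (y axis, deposited log2-like scale) for 3 muscle and heart isoforms of complex IV, 2 brown fat markers and 4 skeletal muscle markers (x axis), with 1 symbol per array. Mutant replicate 3 lies 2 to over 3 units below the control mean in these 4 muscle markers, none of which was called, apart from the other mutants. The 3 mutants lie close together in Cox7a1, Cox8b, Ucp1 and Cidea. The rest of the 5 tested brown fat markers are not shown, among them Ppargc1a, which was called higher (0.68). The called muscle markers are not shown. Their mutants lay closer together, near the dim end of the scale, as in Myh1 (8.78, 8.69 and 8.25) and Mb (8.40, 8.35 and 8.28).

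The rest of complex IV pointed lower as well. All 13 tested genes had a negative difference, with a median of -0.57. Of these, 5 were called lower (38.5%, against 17.6% of all tested genes), the 3 muscle and heart isoforms with Cox6c and Cox7b. Cox7b, a small nuclear-encoded subunit, had 8.40, 8.58 and 8.54 in mutant nerves, against 9.05, 8.82 and 8.90 in control nerves (difference -0.42, SE 0.08, adjusted p = 0.00781). Its groups did not overlap and the call was kept whichever array was left out. Cox6c, another small subunit, had 12.74, 12.95 and 13.17 in mutant nerves, against 13.71, 13.37 and 13.37 in control nerves (difference -0.53, SE 0.14, adjusted p = 0.0240). That call was lost without mutant replicate 2 or control replicate 1 and with the replicate block (adjusted p = 0.0538). Ndufa4, named for complex I but found in complex IV, was not called (-0.38, SE 0.28, adjusted p = 0.341), and nor was Cox6b1 (-0.71, SE 0.34, adjusted p = 0.155). Without mutant replicate 1, 10 complex IV genes were called lower.

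Complex I had the most members. Of its 33 tested genes 9 were called lower (27.3%, against 17.6% of all genes), 32 pointed lower and the median difference was -0.70. Ndufa13, an accessory subunit also known as GRIM-19 and the brightest complex I gene, had 12.51, 13.24 and 13.85 in mutant nerves, against 14.34, 14.30 and 14.46 in control nerves (difference -1.16, SE 0.31, adjusted p = 0.0257). Ndufc1, a small accessory subunit, had 10.69, 11.50 and 11.72 in mutant nerves, against 12.38, 12.47 and 12.44 in control nerves (difference -1.13, SE 0.25, adjusted p = 0.0134). In both genes each mutant array lay below every control array, with mutant replicate 1 the lowest and the controls close together. Ndufa5, an accessory subunit of the arm that faces the matrix, had 10.26, 11.20 and 11.76 in mutant nerves, against 12.10, 12.36 and 12.18 in control nerves (difference -1.14, SE 0.35, adjusted p = 0.0429). Ndufb2 (-0.92, SE 0.21, adjusted p = 0.0163) and Ndufb10 (-0.87, SE 0.27, adjusted p = 0.0431), accessory subunits of the membrane arm, followed. The other lower calls were Ndufv2, Ndufb3, Ndufb9 and Ndufb5, with differences of -0.75, -0.75, -0.68 and -0.55.

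Within complex I the catalytic core stood beside a large accessory shell. The 28 accessory genes had a median of -0.74 and all pointed lower, with 8 called. The 5 tested core genes had a median of -0.54 with 1 called, Ndufv2, an iron-sulfur subunit of the module that takes electrons from NADH. Ndufv1, which binds NADH, gave 13.21, 13.35 and 13.13 in mutant nerves, against 13.18, 13.35 and 13.12 in control nerves, a difference of 0.02 (SE 0.09, adjusted p = 0.898). Its arrays were interleaved, and mutant replicate 1 was not low. Ndufc2, an accessory subunit of the membrane arm, had 11.42, 12.40 and 12.57 in mutant nerves, against 12.14, 12.27 and 12.15 in control nerves. With every array its difference was -0.06 (adjusted p = 0.892), and without mutant replicate 1 it was 0.29 and called higher (adjusted p = 0.0181). Of the 9 calls in complex I, all were lost when control replicate 2 was left out, and 1 remained without control replicate 1 or 3. There were 5 without mutant replicate 2, 21 without mutant replicate 1 and 19 without mutant replicate 3. With the replicate number as a block 17 complex I genes were called lower, Ndufb10 no longer among them (adjusted p = 0.0633).

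**Figure D5:**
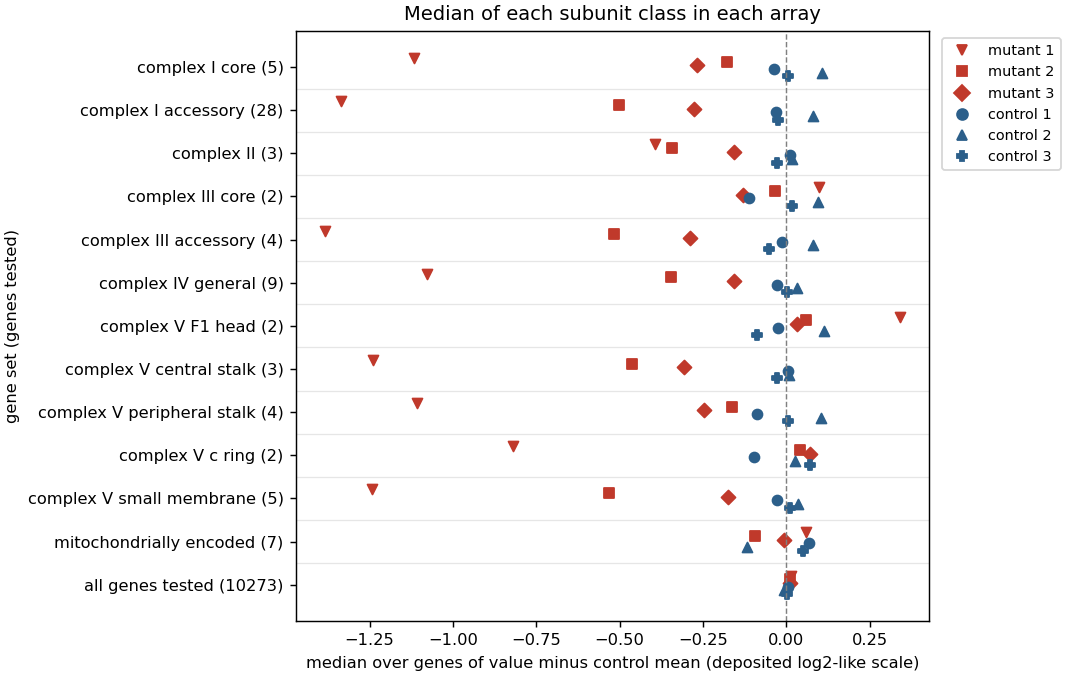
Median over the genes of each subunit class (y axis, number of tested genes in brackets) of the value minus the control mean (x axis, deposited log2-like scale), with 1 symbol per array, mutants red and controls blue. Mutant replicate 1 lies furthest left in most classes, while the complex III core proteins, the F1 head of complex V, the mitochondrially encoded subunits and all genes tested lie around 0 in most arrays.

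In complex II, succinate dehydrogenase, both membrane anchors were lower and the tested catalytic subunit was not. Sdhc, the brightest gene of the complex, had 11.79, 12.17 and 12.11 in mutant nerves, against 12.56, 12.42 and 12.55 in control nerves (difference -0.49, SE 0.11, adjusted p = 0.0130). Sdhd had 9.81, 9.84 and 10.04 in mutant nerves, against 10.20, 10.27 and 10.14 in control nerves (difference -0.30, SE 0.08, adjusted p = 0.0240). The groups did not overlap in either anchor, and mutant replicate 1 stood less apart than in complex I. Sdhb, the iron-sulfur subunit, had 11.01, 11.44 and 11.26 in mutant nerves, against 11.18, 11.18 and 11.14 in control nerves, a difference of 0.07 (SE 0.11, adjusted p = 0.649), and Sdha was too dim to test. The Sdhc call was lost without control replicate 1 or 3 (highest adjusted p = 0.0539). Sdhd missed the threshold without mutant replicate 2 or control replicate 1 or 2, and with the number as a block (adjusted p = 0.0503), so that complex II had 0 lower calls without control replicate 1 and 1 without control replicate 2 or 3 or mutant replicate 2.

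In complex III 1 of 6 tested genes was called lower (16.7%, against 17.6% of all tested genes), with a median of -0.26. Uqcr11, a small subunit, had 11.28, 12.10 and 12.68 in mutant nerves, against 13.08, 13.17 and 13.07 in control nerves (difference -1.09, SE 0.32, adjusted p = 0.0386). Uqcr10, another small subunit and the brightest gene of the complex, had 12.18, 13.10 and 13.58 in mutant nerves, against 13.93, 14.06 and 13.90 in control nerves. Both showed the same order, with mutant replicate 1 lowest, mutant replicate 3 highest of the mutants and no overlap. Uqcr10 narrowly missed the threshold (-1.01, SE 0.32, adjusted p = 0.0502), and another, dimmer probe of the gene passed it (-1.06, SE 0.29, adjusted p = 0.0311), as did the brightest one with the replicate block (adjusted p = 0.0424). Uqcrc1 (0.02, SE 0.06) and Uqcrc2 (-0.07, SE 0.12), the core proteins, and Uqcrq (0.01, SE 0.09), a small subunit, were not called and their groups overlapped. Uqcrh, the hinge protein, was not called either (-0.45, SE 0.21, adjusted p = 0.147), with groups that did not overlap. Without mutant replicate 1 or 3 there were 3 and 2 lower calls, and 0 when mutant replicate 2 or any 1 control array was left out. The replicate block gave 2.

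ATP synthase, complex V, held the only member called higher. Atp5b, the catalytic beta subunit of the F1 head and the brightest gene of the complex, had 15.38, 15.30 and 15.18 in mutant nerves, against 14.90, 15.12 and 14.93 in control nerves (difference 0.30, SE 0.08, adjusted p = 0.0291). Every mutant array lay above every control array, and mutant replicate 1 was the highest. This call was lost without mutant replicate 2 or control replicate 1 or 3 (highest adjusted p = 0.103), without the brightness filter and with a mean-variance trend, and the difference was 0.26 without mutant replicate 1. Atp5a1, the alpha subunit beside it in the head, did not separate the groups (-0.02, SE 0.13, adjusted p = 0.936). Of the 16 tested genes 4 were called lower, 15 pointed lower and the median was -0.41. Atp5j2, subunit f of the membrane part, had 12.19, 13.01 and 13.40 in mutant nerves, against 13.80, 13.86 and 13.82 in control nerves (difference -0.96, SE 0.28, adjusted p = 0.0377). Atp5mpl, a small proteolipid of the membrane part, had 12.05, 12.70 and 13.14 in mutant nerves, against 13.60, 13.57 and 13.60 in control nerves (difference -0.96, SE 0.25, adjusted p = 0.0251). In both, the controls lay close together and the mutants spread over more than 1 unit. Another, much dimmer Atp5mpl probe was not called (-0.06).

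Atp5e, the epsilon subunit of the central stalk, had 8.47, 8.76 and 9.40 in mutant nerves, against 9.58, 9.72 and 9.84 in control nerves (difference -0.83, SE 0.23, adjusted p = 0.0288). Atp5k, subunit e of the membrane part, was dim, with 8.28 ± 0.11 in mutants and 8.58 ± 0.08 in controls (SD, n = 3 each; difference -0.30, SE 0.07, adjusted p = 0.0217). Its mutant mean lay below the lowest mean that the filter kept, 8.34, so it was tested only because it was higher in controls. Atp5c1, the gamma subunit of the same stalk as Atp5e (-0.07, SE 0.10), and Atp5pb, subunit b of the peripheral stalk (-0.04, SE 0.08), were not called and their groups overlapped. Atp5k missed the threshold without mutant replicate 2 or control replicate 1 or 2, and with the number as a block (adjusted p = 0.0502). The block brought in Atp5d (adjusted p = 0.0459), the delta subunit of the central stalk, and Atp5h (adjusted p = 0.0331), subunit d of the peripheral stalk, for 5 lower calls in complex V. Without mutant replicate 2, control replicate 1 or control replicate 2, 0 complex V genes were called lower and without control replicate 3 there was 1, against 7 without mutant replicate 1 and 8 without mutant replicate 3.

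The symbol rule also matched 2 records that are not subunits. Cox7a2l, a factor that joins complexes III and IV into supercomplexes, had 11.72, 12.10 and 11.90 in mutant nerves, against 12.02, 12.12 and 12.18 in control nerves (difference -0.20, SE 0.10, adjusted p = 0.182). Ndufs5-ps, a pseudogene record whose probe may share sequence with the complex I gene Ndufs5, had 9.45, 10.30 and 10.49 in mutant nerves, against 11.04, 11.01 and 10.95 in control nerves (difference -0.92, SE 0.25, adjusted p = 0.0301). That call was lost without mutant replicate 2 or any 1 control array (highest adjusted p = 0.0930). Among the 23 member genes with several tested probes, 7 had both called and uncalled ones, all of the called ones lower. They include Ndufs4, whose brightest probe was not called (-0.44, SE 0.24, adjusted p = 0.198) while 3 dimmer ones were called lower (-0.53 to -0.61).

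The subunits encoded in mitochondrial DNA did not follow the nuclear ones. Of 7 tested, 0 were called by limma and 0 had an unadjusted p below 0.05, with a median difference of -0.02. ND4, a complex I subunit, had 15.70, 15.41 and 15.39 in mutant nerves, against 15.57, 15.39 and 15.56 in control nerves (difference 0.00, SE 0.10, adjusted p = 0.979). CYTB, the cytochrome b of complex III, had 15.72, 15.69 and 15.79 in mutant nerves, against 15.69, 15.59 and 15.70 in control nerves (difference 0.07, SE 0.06, adjusted p = 0.384). The groups overlapped in both, mutant replicate 1 was not low, and both lay near the highest value of the table, 15.91. Without mutant replicate 1, 1 of the 7 was called lower.

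Assembly factors build the complexes but are not part of them. Of 41 tested, 16 were called lower, 1 higher and 24 were not called, with a median of -0.22. Cox17, the copper chaperone of complex IV, had 10.14, 11.14 and 11.42 in mutant nerves, against 12.05, 11.89 and 11.97 in control nerves (difference -1.07, SE 0.31, adjusted p = 0.0350). Cox20, which helps to insert subunit 2 of complex IV, fell by 0.86 (SE 0.14, adjusted p = 0.00457), and Pet100, another complex IV assembly factor, fell by 0.79 (SE 0.21, adjusted p = 0.0265). Lrpprc, which stabilises mitochondrial mRNAs, was 9.16, 9.12 and 9.17 in mutant nerves, against 8.91, 8.91 and 8.97 in control nerves (difference 0.22, SE 0.05, adjusted p = 0.0134). Its mutant arrays were alike and all above the controls, with replicate 1 not set apart. Cox20 was called whichever array was left out. Cox17 was lost without mutant replicate 2 or any 1 control array, Pet100 without mutant replicate 2 or control replicate 1 or 3, and Lrpprc without control replicate 1 or 2. The list's lower calls numbered 9 without mutant replicate 2 and 7 without any 1 of the control arrays.

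Regulators of mitochondrial biogenesis went both ways. Of 23 tested, 6 were called lower and 5 higher, with a median of 0.00. These are 26.1% and 21.7%, against 17.6% and 22.0% of all tested genes. Ppargc1a, the coactivator PGC-1alpha that induces many respiratory chain genes, had 10.43, 9.71 and 9.90 in mutant nerves, against 9.37, 9.50 and 9.12 in control nerves (difference 0.68, SE 0.19, adjusted p = 0.0343). Every mutant array lay above the controls, and mutant replicate 1, the lowest array for the subunits, was the highest for this gene. The call was lost without mutant replicate 3 or any 1 control array (highest adjusted p = 0.113). Pprc1, a related coactivator (0.41, SE 0.07, adjusted p = 0.00503), and Polg, the polymerase of mitochondrial DNA (0.40, SE 0.05, adjusted p = 0.00153), rose as well. Sirt3, a mitochondrial deacetylase (-0.43, SE 0.08, adjusted p = 0.00578), Twnk, the mitochondrial DNA helicase (-0.37, SE 0.06, adjusted p = 0.00304), and Mterf1b, a mitochondrial transcription termination factor (-0.36, SE 0.06, adjusted p = 0.00544), fell. These last 5 calls were kept whichever array was left out. The number called higher was 3 without mutant replicate 2 or control replicate 2 and 2 without control replicate 1 or 3.

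Other mitochondrial proteins, from the outer membrane to the matrix, likewise went both ways, with 6 of 35 called lower, 5 called higher and a median of 0.09. These shares, 17.1% and 14.3%, were no higher than those of all tested genes, 17.6% and 22.0%. Vdac1, the main channel of the outer membrane, had 14.40, 14.21 and 14.07 in mutant nerves, against 13.28, 13.40 and 13.27 in control nerves (difference 0.91, SE 0.09, adjusted p = 0.000490). Its relative Vdac2 had 12.11, 12.15 and 12.15 in mutant nerves, against 12.61, 12.73 and 12.54 in control nerves (difference -0.49, SE 0.06, adjusted p = 0.00133). The groups of both genes stood clear of each other in opposite directions, and both calls were kept whichever array was left out. Dnm1l, the GTPase of mitochondrial fission (0.82, SE 0.19, adjusted p = 0.0163), and Hspa9, a matrix chaperone (0.54, SE 0.07, adjusted p = 0.00172), rose, while Etfb, a carrier of electrons from fatty acid oxidation (-0.83, SE 0.22, adjusted p = 0.0251), and Sod2, the matrix superoxide dismutase (-0.52, SE 0.14, adjusted p = 0.0277), fell. Dnm1l was lost without control replicate 2 or 3, and Etfb and Sod2 without any 1 control array. The list had 3 lower calls without control replicate 1 or 2, and 8 and 10 higher calls without mutant replicate 1 and 3. Of 17 tested hypoxia targets, 5 were called lower (29.4%) and 4 higher (23.5%), with a median of -0.04. Among them Ndrg1 (-0.98) and P4ha1 (-0.53) fell, and Ddit4 (0.75) and Pgk1, a glycolytic enzyme (0.69), rose. The Ddit4 call was lost without mutant replicate 2 or control replicate 1 or 2, and the list had 3 lower calls without control replicate 2.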

How the data were processed

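The files hold 1 value per probe for 3 mutant and 3 control sciatic nerve arrays. The deposited table is on a scale like log2, between 7.96 and 15.91. The authors normalized them by RMA and used limma, per the labels (the series' design text), and lumi 1.8.3 is named per the submitters' processing notes. Whether the scale is plain log2 or lumi's variance-stabilised one was not stated in the sources, and on a variance-stabilised scale a difference of dim probes understates the fold. Background correction and the number of beads are not given either, and the number of arrays limits the precision.

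The design text keeps 18420 of 45281 probes by present calls, which were not used here. In their place the brightest 18420 probes were taken, by the mean of all 6 arrays, down to a mean of 8.34. Probes were named from the platform annotation (34885 with 1 symbol, 18 with several, 10378 with none). All 122 member probes matched the RefSeq gene table of GRCm38.p6 by gene identifier. Mutants were set against controls by lmFit and eBayes of limma 3.58.1, run in R 4.3.3, 2-sided and with 4 residual and 2.63 prior degrees of freedom, with Benjamini-Hochberg adjustment over all kept probes, and the procedure was tested on simulated data. Isoform pairs were compared with exact permutation tests over arrays.

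The members and the gene lists were chosen with earlier results of these data known, and the ribosomal protein lists were added after values were seen. Named genes are the isoform pairs, the brightest gene and up to 5 largest called rises and falls of each complex, the records that are not subunits, and up to 3 called genes in each direction of each list (the brightest 2 where none was called). Ndufv1, Ndufv2, Ndufb3, Ndufb5, Ndufb9, Ndufc2, Ndufs4, Sdhb, Uqcrc1, Uqcrc2, Uqcrq, Atp5a1, Atp5c1, Atp5pb and Tnnc1 were named after their values were seen, as were Uqcrh, Atp5d, Atp5h and Atp5g2.

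Same-numbered mutant and control arrays deviated together from their group means (correlations 0.165, 0.155 and 0.224, other pairs at most 0.0283). The pairing therefore comes from this check and not from a label. It was read from the same values, so the calls of the block fit are not independent support. The block is given beside results that it changes. Alternatives were no brightness filter, the brightest 12000 probes, the block, median centring, quantile normalization, a mean-variance trend with a robust prior, array weights, the mean of a gene's probes, and leaving out each array.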

Additional observations from a re-analysis of the deposited data

How the results depend on the processing

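With 3 arrays a group, 1 array can move the calls, and the fits that leave one out have fewer samples. Median centring and quantile normalization left the number of member genes called lower at 22, and centring shifted the group medians by 0. The authors had already normalized the values, and the median of the kept probes was 9.18 in every array. These refits are therefore little check of the calls. With the replicate block 30 member genes were called lower, 18 of them shared with the 22, and the calls of Sdhd, Cox6c, Ndufb10 and Atp5k were lost. The block changed complex I to 17 lower calls, complex II to 1 and complex III to 2. No brightness filter gave 12 member probes lower and 0 higher, 7 member genes lower and 0 higher, and 1, 0, 3 and 1 lower calls in complexes I, III, IV and V, with 0 higher in complex V. It also gave 8 lower assembly factors, 3 lower other mitochondrial proteins and 3 lower hypoxia targets. Medians without the filter were -0.17 in complex II, -0.0682 in complex III and 0.0275 over other mitochondrial proteins. The brightest 12000 probes gave 2 lower calls in complex III and 3 among regulators, and the mean of a gene's probes gave 2 in complex III. The trend with a robust prior gave 15 lower calls in complex I and 2 in complex III, and 0 higher among member probes, member genes and complex V. Array weights were 0.208, 4.64 and 0.629 for mutant replicates 1, 2 and 3, so mutant replicate 2 dominated the mutant mean. They gave 4483 lower calls over all probes, 63 lower and 2 higher member probes, and 43 lower and 2 higher member genes. With weights complexes I, III, IV and V had 22, 2, 8 and 8 lower calls, complex II had 1 higher, and 1 mitochondrially encoded subunit was lower. Weights also gave 3 higher assembly factors with a median of -0.16, 8 higher regulators and 13 higher other mitochondrial proteins. The causes were not tested.

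Leaving out 1 array at a time gave 2041 to 3458 lower calls over all probes, 7 to 62 lower and 0 to 2 higher member probes, and 5 to 44 lower and 0 to 2 higher member genes. Lower calls ranged over 0 to 21 in complex I, 0 to 2 in complex II, 0 to 3 in complex III, 4 to 10 in complex IV and 0 to 8 in complex V, and higher calls over 0 to 1 in complexes I and V. Mitochondrially encoded subunits had 0 to 1 lower. Assembly factors had 7 to 18 lower and 0 to 2 higher with medians of -0.27 to -0.12, regulators had 2 to 6 higher with medians of -0.0107 to 0.0486, other mitochondrial proteins had 3 to 8 lower and 4 to 10 higher with medians of 0.0387 to 0.10, and hypoxia targets had 3 to 6 lower. Without mutant replicate 1, Ndufc2 turned to 0.29 and was called higher, and uncalled genes such as Atp5g2 (0.22) also turned sign. Leaving out single arrays gave Ndufc2 -0.28 to 0.29. Over the single genes named or counted, 1418 refits stayed on the same side of the threshold, called or not, 140 lost a call and 99 gained one. The 1418 include the refits with median centring, which could not change. The brightness filter limits dim genes such as Atp5k and Cox6b2.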
